A study of Mus musculus with 2 samples.

Results

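Accessible chromatin at the genes for cytosolic ribosomal proteins was compared between cultured mast cells lacking Dnmt3a and wild-type mast cells. The genes were taken by symbol: protein-coding genes named Rpl or Rps followed by a digit, with Rpsa, Rplp0, Rplp1 and Rplp2 and without the Rps6k kinases. This gave 91 of 21631 protein-coding genes. Of the 91, 77 were core ribosomal protein genes (31 of the small and 46 of the large subunit), 9 were paralogs or a related gene (Rpl3l, Rpl7l1, Rpl10l, Rpl22l1, Rpl32l, Rpl36al, Rpl39l, Rps27l and Rps19bp1), and 5 were other copies (Rpl31-ps12, Rpl34-ps1, Rpl37rt, Rps23rg1 and Rps27rt). The rule did not use any measured value. All peaks inside a gene or within 1 kb of it were counted for that gene.

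The Dnmt3a knockout group was 1 culture from marrow of mice deleted for Dnmt3a, an enzyme that adds new methyl groups to DNA, and the wild-type group was 1 culture from littermates. The mice were females, given as 3 weeks old in the design and as 3 to 4 weeks old in the growth protocol. Both groups were untreated, grown in interleukin 3 for 4 weeks to mast cells of over 95% Kit and IgE receptor staining, and assayed by ATAC-seq, in which a transposase cuts and tags open DNA. The sources used here do not give the allele, the tissue in which Dnmt3a was deleted, or the number of mice behind each culture. With 1 library a genotype, no difference below could be set against a spread between animals, no test between genotypes was made, and intervals (exact binomial, 95%) cover counting error only. In bulk cells a site open in more cells and a site more open in each cell cannot be told apart.

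Ribosomal proteins build the small and large subunits around ribosomal RNA, and a growing cell makes them in matched amounts. Their genes are short, active in nearly all cell types and start within a tract of pyrimidines. That tract opens the messenger RNA and ties its translation to nutrient and growth signals through mTOR. Sites for GABP, an ETS family factor, for YY1 and for Sp1 are known from mammalian ribosomal protein promoters. Mouse and human genomes also hold many processed copies of these genes, made by reverse transcription of the messenger RNA and mostly lacking the original promoter.

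The knockout list held 19684 peaks and the wild-type list 17170, with a median summit pileup of 9 overlapping fragments in both. Peak strength is given below as the authors' −log10 q, the value of a peak in its own list, with a median of 8.89 over the knockout list and 8.49 over the wild-type list. Dnmt3a itself had 5 knockout and 6 wild-type peaks. Of 10 mast cell genes, 7 had a peak in the knockout list (not Cma1, Fcer1a and Mcpt4) and 8 in the wild-type list (not Hdc and Mcpt4). None of 6 neutrophil genes had one in either list. The knockout and wild-type counts were 1 and 1 of 3 basophil genes, 2 and 1 of 4 macrophage genes, 1 and 0 of 3 B cell genes, 3 and 2 of 4 T cell genes and 2 and 1 of 4 erythroid genes. Their part in the results below was not tested.

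Promoters are printed here for the members on which the results turn, from 250 bases before to 50 after an annotated start, or from 100 before to 50 after it. Sequences are from RefSeq on GRCm38.p6, in the direction of the gene. Capitals mark matches to CCGGAAG (the core bound by ETS factors such as GABP), ATGGCGG (YY1), GGGCGG (the GC box of Sp1), CACGTG (E-box) and the NRF1 motif on either strand, and a run of C and T at the start. Rpl15 (chr14:18270937-18271236, minus strand) and Rpl13a (chr7:45128696-45128995, minus strand) had the strongest knockout-list peaks among core members that hold the ETS and the YY1 match. Rpl14 (chr9:120571417-120571566, plus strand), Rps15a (chr7:118116098-118116247, minus strand) and Rpl5 (chr5:107900428-107900577, plus strand) carried the strongest knockout-only regions over a tabulated promoter. Rpl10a (chr17:28328315-28328614, plus strand), Rpl26 (chr11:68901466-68901615, plus strand) and Rpl24 (chr16:55966175-55966324, plus strand) carried the strongest wild-type-only ones. Rpl10a is shown at the later of its starts, with the NRF1 match.
Rpl15: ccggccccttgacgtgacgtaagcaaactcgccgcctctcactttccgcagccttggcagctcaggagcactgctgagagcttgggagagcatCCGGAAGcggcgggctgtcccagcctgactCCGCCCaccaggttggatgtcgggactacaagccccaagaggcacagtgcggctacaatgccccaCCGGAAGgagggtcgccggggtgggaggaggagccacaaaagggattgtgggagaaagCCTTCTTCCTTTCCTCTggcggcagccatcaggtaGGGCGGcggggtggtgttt
Rpl13a: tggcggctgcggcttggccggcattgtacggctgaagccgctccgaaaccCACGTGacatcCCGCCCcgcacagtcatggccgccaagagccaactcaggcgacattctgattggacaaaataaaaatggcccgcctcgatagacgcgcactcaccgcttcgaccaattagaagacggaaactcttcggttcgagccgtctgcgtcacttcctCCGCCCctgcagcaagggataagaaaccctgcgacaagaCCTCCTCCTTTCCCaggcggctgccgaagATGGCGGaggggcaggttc
Rpl14: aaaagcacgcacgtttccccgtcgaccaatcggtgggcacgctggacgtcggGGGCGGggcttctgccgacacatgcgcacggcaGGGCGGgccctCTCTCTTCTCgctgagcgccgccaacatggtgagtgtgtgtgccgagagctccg
Rps15a: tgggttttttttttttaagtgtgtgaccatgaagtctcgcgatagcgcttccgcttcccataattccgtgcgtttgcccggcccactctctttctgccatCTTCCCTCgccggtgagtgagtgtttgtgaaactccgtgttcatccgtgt
Rpl5: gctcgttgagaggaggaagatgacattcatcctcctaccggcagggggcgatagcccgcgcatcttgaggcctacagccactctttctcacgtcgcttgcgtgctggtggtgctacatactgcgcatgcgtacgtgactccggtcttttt
Rpl10a: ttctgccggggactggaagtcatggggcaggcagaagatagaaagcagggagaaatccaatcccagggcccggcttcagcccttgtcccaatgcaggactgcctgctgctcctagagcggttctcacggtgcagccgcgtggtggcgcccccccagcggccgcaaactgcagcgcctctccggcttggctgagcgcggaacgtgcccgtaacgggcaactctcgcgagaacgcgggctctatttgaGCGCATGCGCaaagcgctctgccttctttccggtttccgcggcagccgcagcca
Rpl26: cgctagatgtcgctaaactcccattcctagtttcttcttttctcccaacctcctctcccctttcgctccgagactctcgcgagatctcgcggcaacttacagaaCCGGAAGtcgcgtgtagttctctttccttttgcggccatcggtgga
Rpl24: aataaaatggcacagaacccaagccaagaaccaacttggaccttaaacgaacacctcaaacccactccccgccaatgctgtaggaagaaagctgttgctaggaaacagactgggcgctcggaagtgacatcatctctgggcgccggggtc

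Most ribosomal protein genes carried an accessible site in both libraries. A peak was called at 74 of 91 members in the knockout list (81.3%, interval 71.8 to 88.7) and at 65 in the wild-type list (71.4%, 61.0 to 80.4). Over all protein-coding genes the shares were 46.3% in the knockout list and 43.2% in the wild-type list. Members were short, with a median length of 3175 bp against 17329 bp over all protein-coding genes, so their windows were shorter. Among core members, 68 of 77 had a knockout peak (88.3%) and 59 a wild-type peak (76.6%). For core small subunit genes the counts were 30 knockout and 25 wild-type of 31, and for core large subunit genes 38 and 34 of 46. Over a tabulated promoter of 300 bases, 50 of the 70 members in the promoter table had a knockout peak (71.4%) and 46 a wild-type peak (65.7%), beside 33.2% and 31.2% of the 17274 protein-coding genes in that table.

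**Figure D1:**
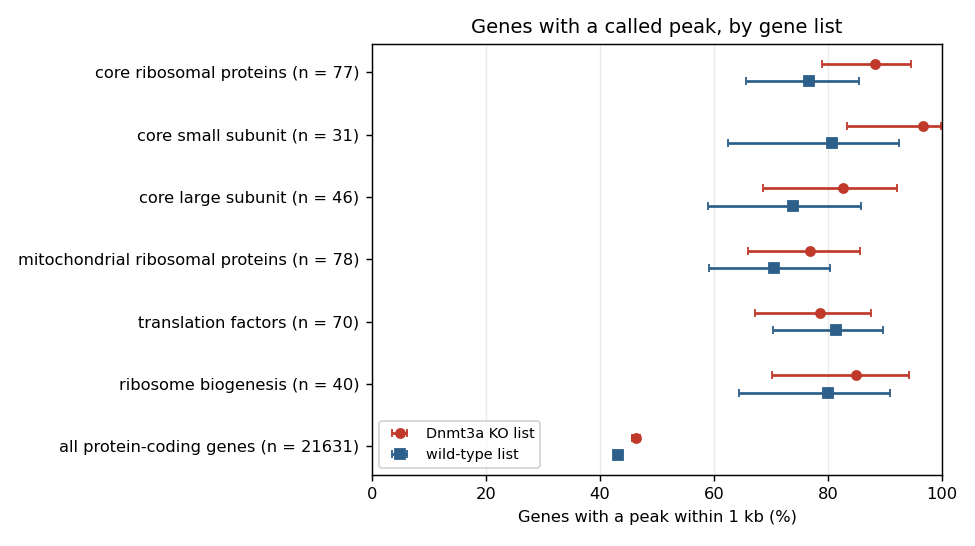
Share of genes with a peak inside the gene or within 1 kb of it (x axis, percent) for gene lists (y axis), with circles for the Dnmt3a knockout list, squares for the wild-type list and bars for exact binomial 95% intervals. Core ribosomal protein genes stood at 88.3% and 76.6%, and all protein-coding genes at 46.3% and 43.2%.

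Other genes of protein synthesis were also accessible in most cases. Mitochondrial ribosomal protein genes had a peak at 60 of 78 in the knockout list (76.9%) and at 55 in the wild-type list (70.5%). Translation factor genes had one at 55 of 70 (78.6%) and 57 (81.4%), and ribosome biogenesis genes at 34 of 40 (85%) and 32 (80%). The translation factor genes were taken by symbol alone, Eif or Eef followed by a digit, and none was removed by function. The intervals of these lists overlapped those of the members in both libraries. Their genes were longer, with medians of 7690.5, 15294 and 13397 bp in the order named, against 3175 bp for members. Their windows were thus longer too, and the part of window length was not tested.

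The accessible sites of the members lay at transcription starts. Of the 55 members with a tabulated start and a knockout peak, 46 had the summit of the strongest one within 250 bp of a start (83.6%, interval 71.2 to 92.2). In the wild-type list it was 42 of 51 (82.4%, 69.1 to 91.6). These shares were 59.7% and 61.1% over all protein-coding genes. The windows over all genes were longer (median gene length 17329 bp against 3175 bp for members), which leaves more room for a summit far from a start. The part of window length in the difference was not tested. Among summits within 1 kb of the start the median position was 62 bp upstream in the knockout list and 60 bp upstream in the wild-type list, and 46 of 50 and 43 of 46 summits lay upstream. The median over all genes was as near, 61 bp upstream in the knockout list and 62 bp in the wild-type list, with 78.0% and 77.5% of summits upstream. For the 21 members with no tabulated start, the strongest peak summit lay within 250 bp of a gene end at 15 of 19 with a knockout peak and at 12 of 14 with a wild-type peak.

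**Figure D2:**
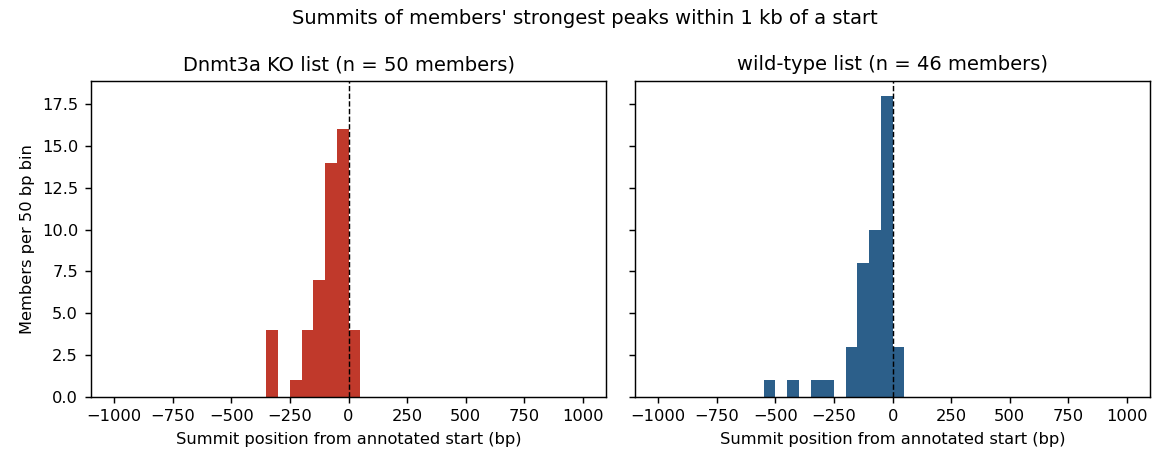
Summit position of a member's strongest peak relative to its nearest annotated start (x axis, bp, negative is upstream) and members per 50 bp bin (y axis). Only summits within 1 kb of a start are drawn. These are 50 of 55 in the Dnmt3a knockout list (left) and 46 of 51 in the wild-type list (right). Most summits lay in the bins just upstream of the start, with medians 62 bp and 60 bp upstream.

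Peaks of the members were of middling strength. The strongest peak of a member had a median −log10 q of 10.9 in the knockout list and 10.7 in the wild-type list. Over all protein-coding genes with a peak the medians were 12.1 in the knockout list and 10.98 in the wild-type list. Its median width was 187 bp in the knockout list and 186 bp in the wild-type list, against 193 and 183 bp over all genes. Of the members, 65 had 1 region, 12 had 2 and 1, Rps18, had 3. Over all protein-coding genes 6557 had 1, 2558 had 2 and 1738 had 3 or more.

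The strongest knockout-list site among the members was counted for Rpl15, a large subunit gene. It had a −log10 q of 29.3 in the knockout list and 26.9 in the wild-type list, with 27 and 23 fragments at the summit. Its peaks also overlapped the gene Nkiras1 in both lists. Rpl37 had 25.3 in the knockout and 19.2 in the wild-type list, and Rpl31 had 18.4 and 23.8. The peaks counted for Rpl37 also overlapped the gene Card6 in both lists. Rpl13a, a large subunit protein with a further role in silencing inflammatory messenger RNAs that is known from human cells, had 24.2 and 22.9. Its summit lay farther upstream than most, at 311 bp in the knockout and 263 bp in the wild-type list. Rps3, which lines the messenger RNA entry channel of the small subunit, had 22.1 and 25.5, and Rpl27 had 22.0 and 24.9. Rpl15, Rpl37 and Rpl13a had the higher value in the knockout list, and Rpl31, Rps3 and Rpl27 in the wild-type list.

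Rpl3l, the striated muscle paralog of Rpl3, also ranked near the top, with 26.0 in the knockout list and 28.0 in the wild-type list. This site did not lie at the start of Rpl3l. It lay beyond the other end of the gene (chr17:24736416-24736656), 3819 bp from the nearest Rpl3l start and within 89 bp of a start of the neighbouring gene Msrb1. Likewise the shared site counted for Rpl4, a protein of the peptide exit tunnel, had 6.83 and 4.85 and lay 6026 bp from its start in the knockout list, beside a start of Snapc5. Of 70 regions at members with a tabulated start, 58 lay nearest to the member's own start and 12 nearest to a tabulated start of another gene. At Rpl9, Rps27 and Rps28 these starts lay close together: the knockout summit was 5 bp from a start of Lias, 62 bp from one of Rab13 and 3 bp from one of Ndufa7. Such a site cannot be given to one gene or the other. The count of 12 leaves out genes with no tabulated start. It also leaves out sites nearest to a member's own start that overlapped another gene, such as those of Rpl15 and Rpl37. Others included the sites of Rpl36al (Mgat2), Rpl35a (Iqcg), Rplp2 (Pidd1) and Rpl12 (Lrsam1), and the shared site of Rps18 (Vps52).

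**Figure D3:**
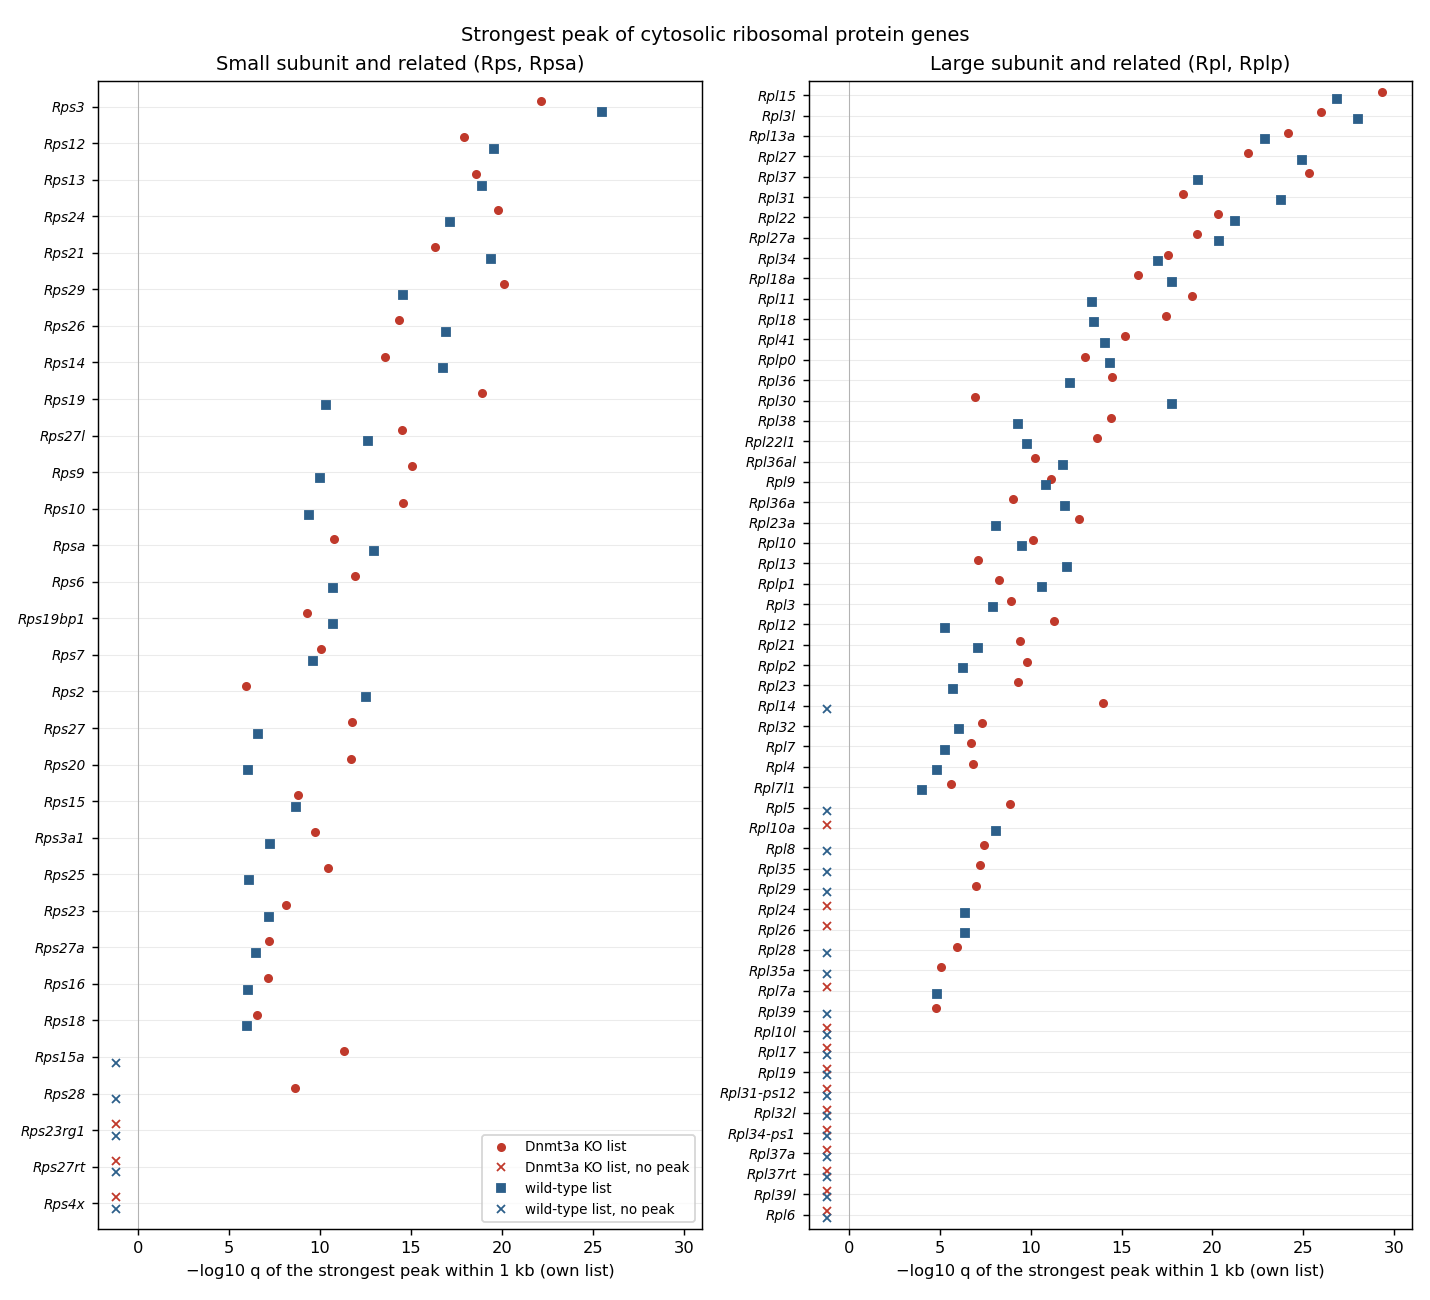
Strongest peak of each of 87 of the 91 members, small subunit genes left and large subunit genes right, ordered by the summed strength of both lists. The x axis gives the −log10 q of the peak in its own list, circles stand for the Dnmt3a knockout list, squares for the wild-type list and crosses for no called peak. Rpl15 has the highest summed strength, with 29.3 and 26.9, and 13 members at the bottom have crosses in both lists.

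Weak calls in the knockout list were at Rpl39 (4.80) and Rpl35a (5.09), neither of which had a wild-type peak, and at Rpl7l1, a nucleolar relative of Rpl7, with 5.65 in the knockout and 4.03 in the wild-type list. In the wild-type list Rpl4 and Rpl7a both had 4.85 and Rpl12 had 5.30. Rpl12 had 11.3 in the knockout list. The calls of Rpl39, Rpl35a and Rpl7l1 rested on 5 or 6 fragments at the knockout summits, and those of Rpl7l1, Rpl4, Rpl7a and Rpl12 on 5 or 6 at the wild-type summits.

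The genes of the ribosomal stalk, which recruits elongation factors, were accessible in both libraries. Rplp0, the stalk base, had 13.0 in the knockout list and 14.4 in the wild-type list. Rplp1 had 8.24 and 10.6. Rplp2 had a shared region with 9.80 and 5.003, centred 344 bp upstream of its start in the knockout list, and a wild-type peak of its own with 6.27 only 21 bp upstream. The stalk genes thus shared a site each, with 1 further site in the wild-type list. All peaks counted for Rplp2 also overlapped the gene Pidd1. Rpsa, the small subunit protein also known as the laminin receptor, had 10.7 in the knockout and 13.0 in the wild-type list.

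Rpl5 and Rpl11 bind the 5S ribosomal RNA together and, when free, restrain Mdm2 and so stabilise p53. Rpl11 was accessible in both, with 18.9 in the knockout list and 13.4 in the wild-type list. Rpl5 had a knockout peak over its start with 8.89 and 8 fragments, and no wild-type peak, the nearest lying 26050 bp away. Rps27a encodes a ribosomal protein fused to ubiquitin. It had a shared region with 7.20 in the knockout and 6.46 in the wild-type list, and a knockout-only region 89 bp from the nearest wild-type peak with 5.82. Rps19, the gene most often mutated in human Diamond-Blackfan anaemia, was chosen for its values. It had shared regions nearer to and farther from its starts, with 18.9 and 6.50 in the nearer one and 5.89 and 10.3 in the farther one (knockout and wild-type lists). The stronger site was the nearer one in the knockout list and the farther one in the wild-type list.

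Of the paralogs and related genes, 6 of 9 had a peak in each library, and these were the same 6. Besides Rpl3l and Rpl7l1 they were Rpl22l1 (13.7 in the knockout and 9.79 in the wild-type list), Rpl36al (10.2 and 11.8), Rps27l, a p53 target in human and mouse cells (14.5 and 12.7), and Rps19bp1, which binds the Rps19 protein (9.31 and 10.7). Each of these 4 was called at its start in both libraries. The peaks counted for Rpl36al also overlapped the gene Mgat2 in both lists. Rpl10l and Rpl39l, the testis forms of Rpl10 and Rpl39, and Rpl32l had no peak in either list, and neither had any of the 5 other copies.

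Among core genes, 5 of 77 had no peak in either list: Rpl6, Rpl17, Rpl19, Rpl37a and Rps4x, the X-linked small subunit gene. The nearest knockout peak to Rpl37a lay 3479 bp from the gene and the nearest wild-type peak 127979 bp. For Rpl17 these distances were 2331 and 2343 bp, for Rpl6 5887 and 10851 bp, for Rps4x 27699 and 27732 bp and for Rpl19 34136 and 34177 bp. A gene with no called peak had no site past the authors' threshold at this depth, which does not show closed chromatin. Over all protein-coding genes 49.8% had no peak in either list.

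Sites of the members were mostly shared between the genotypes. The 91 windows held 92 regions, of which 65 were shared (70.7%, interval 60.2 to 79.7), 19 were called in the knockout library alone (20.7%, 12.9 to 30.4) and 8 in the wild-type library alone (8.70%, 3.83 to 16.4). Over all 17235 regions within 1 kb of protein-coding genes the shares were 57.7%, 26.4% and 15.8%. The shared part was close to that of the members in related lists. It was 65.9% at mitochondrial ribosomal protein genes, 68.4% at translation factor genes and 69.6% at ribosome biogenesis genes. Knockout-only regions were 70.4% of the unshared regions at members (49.8 to 86.2) and 62.5% at all protein-coding genes, and the share over all genes lies inside the interval of the members. The summits of shared regions lay a median of 29 bp apart in the 2 libraries, the same as over all shared regions, and at most 132 bp apart at members.

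**Figure D4:**
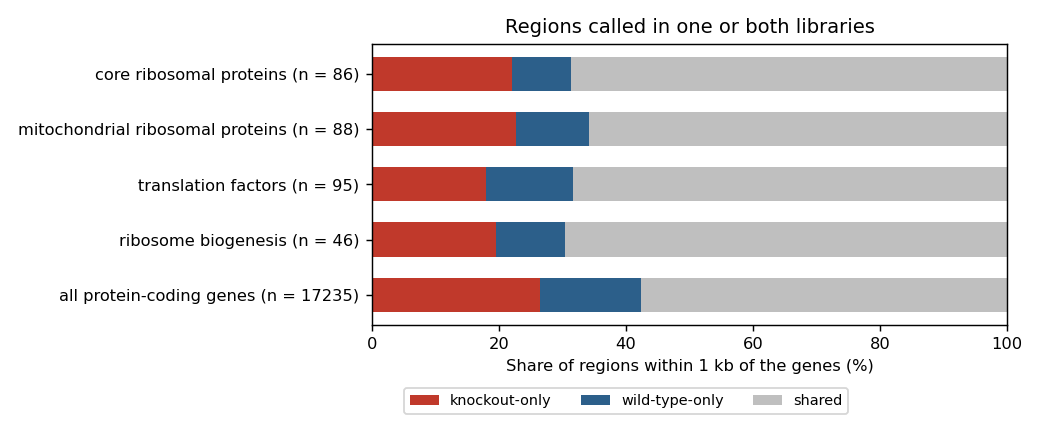
Share of regions within 1 kb of the genes of each list (x axis, percent) that were called in the Dnmt3a knockout library alone, in the wild-type library alone or in both. At core ribosomal protein genes 22.1% were knockout-only, 9.30% wild-type-only and 68.6% shared, against 26.4%, 15.8% and 57.7% at all protein-coding genes.

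Sharing followed peak strength. Of member peaks with a −log10 q from 10 to 20, 32 of 34 in the knockout list (94.1%) and 28 of 28 in the wild-type list had a partner in the other list, against 88.7% and 95.6% of all peaks of that strength. Between 5 and 10, 26 of 40 knockout peaks (65.0%, interval 48.3 to 79.4) and 29 of 35 wild-type peaks (82.9%, 66.4 to 93.4) had one, against 52.0% and 67.8% of all peaks. All 8 member peaks of 20 or more in each list were shared. The members' intervals held the share of all peaks in each of these bands in both lists. Over all strengths, 66 of 85 member peaks in the knockout list (77.6%, 67.3 to 86.0) and 68 of 76 in the wild-type list (89.5%, 80.3 to 95.3) had a partner, against 66.8% and 77.0% of all peaks.

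By gene, 61 of 91 members had a peak in both lists, 13 in the knockout list alone and 4 in the wild-type list alone. Over all protein-coding genes 39.3% had a peak in both, 6.98% in the knockout list alone and 3.92% in the wild-type list alone. Of the 78 members with a peak in either list, the 13 were 16.7% and the 4 were 5.13%, while over all protein-coding genes with a peak these shares were 13.9% and 7.80%. More knockout-only than wild-type-only regions were found at 17 of these 78 members, against 3093 of the 10853 protein-coding genes with a peak. The opposite was found at 8 of the 78, against 1747 of the 10853. The shares over all protein-coding genes, with or without a peak, were 14.3% and 8.08%. Each of the 17 had a knockout-only region, against 3771 of the 10853 genes (17.4% of all genes). Each of the 8 had a wild-type-only one, against 2537 (11.7% of all genes). Among genes with a peak, each of these shares was lower at members. No member had both.

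The knockout-only sites were mostly weak. Their median −log10 q was 6.52 and the highest 14.0, against a median of 11.7 for the knockout peaks of shared regions, and a median of 8 fragments stood at their summits. Over all 6541 knockout-only regions of the series the median was 6.48, near that of the members. The strongest was at Rpl14, whose peak had 14.0, a fold enrichment of 10.5 and 14 fragments, with the summit 63 bp upstream of the start shown above. The nearest wild-type peak lay 2225 bp away. Rps15a came next with 11.3 and 10 fragments, 82 bp upstream of its start. These were the only 2 knockout-only member regions of 10 or more.

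Rps28 had a knockout peak of 8.60, centred 7 bp upstream of its start. Among large subunit genes, Rpl8 had 7.45, Rpl35 7.20 and Rpl29 6.98, the last inside the gene. Rpl28, a gene whose start carried 2 knockout-only regions side by side, had 5.94 and 4.60. Rpl5, Rpl35a and Rpl39, described above, also had knockout peaks alone. That of Rpl35a also overlapped the gene Iqcg. Another 4 had a knockout-only region beside a shared one: Rpl18 (6.29), Rps18 (6.52 and 5.32), Rps23 (5.52) and Rps27a. At Rpl18 both regions lay nearer to a start of the neighbouring gene Sphk2 than to that of Rpl18. The knockout summit was 12 bp from a Sphk2 start in the knockout-only region and 91 bp in the shared one. Neither region can be given to Rpl18 alone. The regions of Rps18 lay over 4 kb from its start, the nearer of them 25 bp from a start of B3galt4, a neighbouring gene. The region of Rps23 lay 30 bp from the nearest wild-type peak, so that it and that of Rps27a adjoined a site the wild-type list also held.

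The wild-type-only sites were fewer and as weak, with −log10 q from 4.17 to 9.41, a median of 6.33 and 5 to 8 fragments. The median over all 3952 wild-type-only regions was 6.08. The members with a wild-type peak alone were all of the large subunit. Rpl10a had 8.08 with the summit 27 bp past its earlier start, Rpl24 had 6.40 at 43 bp past its start, and Rpl26 had 6.40 at 86 bp upstream. The site of Rpl7a, with 4.85, lay 178 bp upstream of its start and 13 bp from a start of Med22. The nearest knockout peaks to these sites lay 12511, 7201, 36319 and 7459 bp away, in the order named. Rpl24, a protein that bridges the subunits, and Rpl26, which also binds p53 messenger RNA in human cells, thus had their only called site in the wild-type library.

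Other wild-type-only regions stood beside shared ones. Rps10 had the strongest, 9.41, but 5807 bp from its start and beyond the other end of the gene. Rpl38, a large subunit gene known in mice for its effect on Hox translation, had 5.52 inside the gene, 468 bp from a knockout peak. Rpl7 had 4.17 at 125 bp from a knockout peak, and Rplp2 is described above. None of the 8 reached 10. Core small subunit genes held 9 regions of the knockout-only class and 1 of the wild-type-only class, and core large subunit genes 10 and 7. The difference between the subunits was not tested.

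Some shared sites differed in strength between the lists, in both directions. Rps2 had 5.92 with 8 fragments in the knockout list and 12.5 with 13 in the wild-type list. Rpl30 had 6.92 with 9 fragments and 17.8 with 18. Rps10 had 14.5 with 14 fragments at its start in the knockout list and 6.66 with 8 in the wild-type list, and Rpl12 11.3 with 10 and 5.30 with 6. At Rpl12 the knockout summit lay 9 bp upstream of its start and 62 bp from a start of the gene Lrsam1. The wild-type summit lay 71 bp upstream of the Rpl12 start, at that of Lrsam1. The genes in this comparison were chosen for their values, and a q value of one list is not on the scale of the other.

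Promoters of the members shared sequence features. Of 57 core members with a tabulated promoter, 27 held a C within 5 bases of a start followed by at least 4 more pyrimidines (47.4%, interval 34.0 to 61.0), against 21.8% of 17274 protein-coding genes. The annotated first base was a C in 35.1% of core members and in 13.9% of all genes. CCGGAAG was found in 24 (42.1%, 29.1 to 55.9), against 13.1% of all genes, and ATGGCGG in 9 (15.8%, 7.48 to 27.9), against 6.12%. GGGCGG was found in 35 (61.4%) against 49.8%, CACGTG in 6 (10.5%) against 9.02%, TATAAA in 6 (10.5%) against 14.9% and the NRF1 motif in 2 (3.51%) against 1.49%, all within the interval of the members. Both strands were searched. The pyrimidine run shared bases with a GGGCGG match in 3 core members and with a CCGGAAG and an ATGGCGG match in 1 each, and the other motifs shared none. The CCGGAAG match nearest the start lay at a median position of -30.5 bp (negative is upstream), and 18 of the 24 lay from 100 before to 50 after it. In 2432 other promoters with a match the median position was -27.5 bp, close to that of the members. A match of letters is not a bound site.

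**Figure D5:**
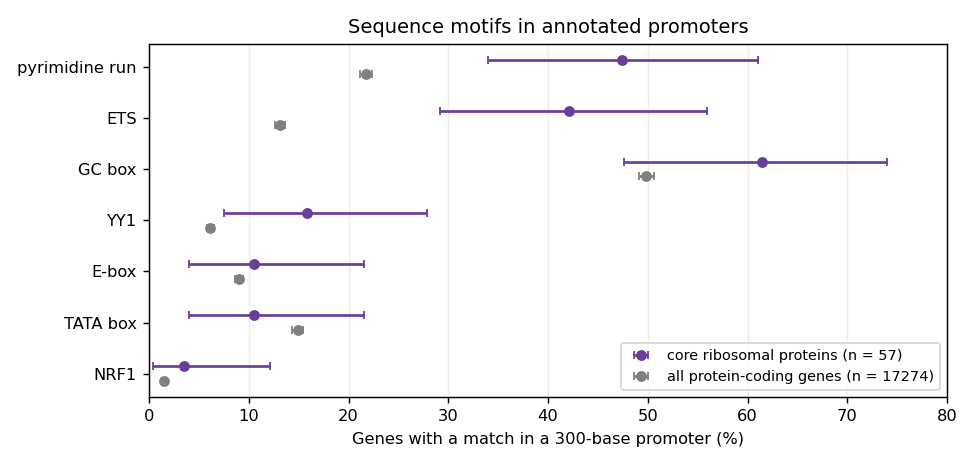
Share of genes with a motif match in any tabulated 300-base promoter (x axis, percent) for 7 motifs (y axis), in core ribosomal protein genes and in all protein-coding genes; bars are exact binomial 95% intervals. The pyrimidine run stands at 47.4% against 21.8% and the ETS core at 42.1% against 13.1%.

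The same features were counted by region class. CCGGAAG was found in 19 of 41 core members with a shared region (46.3%), in 3 of 12 with unshared regions alone (25%, interval 5.49 to 57.2) and in 2 of 4 with no region. The pyrimidine run was found in 19 of 41, 7 of 12 and 1 of 4. The ratio of observed to expected CpG had a median of 0.903 over core promoters, against 0.617 over all protein-coding genes and 0.806 over all genes with a shared region. It was 0.928 in core members with a shared region, 0.865 in those with unshared regions alone and 0.844 in the 4 with none. The values of these 4 ran from 0.421 to 1.18. The median counts of CpG in the same classes, 21, 23.5 and 18.5, did not follow that order. Core promoters had a median of 22 CpG in 300 bases. The 4 with no peak in either library lay on both sides of it. Rpl6 had 8, the fewest of all core members, and Rps4x 13, while Rpl37a had 24 and Rpl19 28. DNA methylation was not measured in these libraries.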

How the data were processed

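Per the submitters' processing notes, the tools were Trimmomatic, Bowtie2 and MACS2, and the builds named are mm10 and GRCm38. Tool versions and settings, with any shift of reads to the cut site, are not given here by any source. Per the labels, libraries were single reads of 50 bp. Reads that match a processed copy as well as a member may be placed on either, and their handling by the authors is not known. The authors deposited a peak list for each library. Its deposited columns, per the file layout, hold a score, a fold (a ratio, pileup at the summit over the local background), the −log10 p-value, the −log10 q-value and the summit. In 100% of peaks this score lay within 1 of the −log10 q multiplied by 10 and rounded down. The deposited fold and −log10 p gave a whole summit pileup in 100% of peaks (tolerance 0.001 in −log10 p), under a Poisson p and a pseudocount of 1. These values rank peaks within their own list.

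Peaks of both lists that overlapped by at least 1 bp were merged into regions. Genes, starts and promoters came from RefSeq tables of GRCm38.p6, the build mm10 names; coordinates are 1-based. The promoter table held 70 of 91 members. The merging of peaks into regions, with simulated sites far apart, and the recovery of summit pileups were tested on simulated data. The other steps were not. Python 3.11.15, NumPy 2.4.6, pandas 2.3.3, SciPy 1.17.1 and matplotlib 3.10.9 were used. The members and lists were chosen with earlier results of these data known, and the core class after the gene table was read. Some genes are not reported here by name; they stay in the counts. Of the others, genes were named if they had an unshared region, no peak or 3 or more regions, stood among the 6 strongest or 4 weakest of a list, or were paralogs, stalk or 5S genes, Rpsa or Rps27a. Rps19, Rps2, Rpl30, Rps10 and Rpl12 were also named for their values, and Rpl9 and Rps27 for the neighbouring start at their peak. Of the promoters the rule takes, those of the 3 strongest unshared regions of each class and of 3 motif examples are shown. Other settings tried were a minimum −log10 q of 5 (for every peak, or for at least 1 peak of a region), lists cut to the same length, windows of 0, 2.5 and 10 kb, a reciprocal overlap of 50%, summits within 200 bp, starts within 250 bp, no paralogs, no chromosome X and, chosen after seeing the data, no copies and promoter windows of 300 bases.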

Additional observations from a re-analysis of the deposited data

How the results depend on the processing

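No paired analysis was possible because there is a single knockout and a single wild-type library. Of 104 alternative values for 13 results, 86 stayed within the interval of the value reported or within 1.5 times a count. The others moved as follows. With the gene interval alone, members with a peak were 58.2% in the knockout and 47.3% in the wild-type list. Knockout-only and wild-type-only regions were 11 and 5, and members with more of either class 11 and 5. Strongest peaks within 1 kb of a start were 100% and 97.1%, against 90.9% and 90.2% with the 1 kb windows. With 10 kb, knockout-list members were 89.0%, unshared regions 32 and 14, and members with more knockout-only regions 27. With the 300-base promoters, chosen after seeing the data and held for 70 of the 91 members, knockout-list members were 71.4%, unshared regions 11 and 5, and members with more of either class 10 and 5. At 1 kb, the members with a tabulated start already held 13 of the 19 knockout-only and 7 of the 8 wild-type-only regions. A reciprocal overlap of 50% gave 14 wild-type-only regions; the cause was not tested. Knockout-only regions outnumbered wild-type-only ones in all 12 alternatives run for these counts, by 15 to 8 with equal numbers of peaks. Such an excess was general, at 62.5% of unshared regions over all protein-coding genes. Summits of 4 to 27 fragments limit every call.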

Other observations

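Fau and Rack1 encode ribosomal proteins whose symbols fall outside the rule. Fau, a ubiquitin-like protein fused to a small subunit protein, had a knockout peak with a −log10 q of 11.2 and no wild-type peak. Rack1, a scaffold on the small subunit, had 6.41 in the knockout and 7.49 in the wild-type list.

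Of 324 annotated Rpl and Rps pseudogenes, with a median length of 533 bp, 0 were overlapped by a peak in the knockout list and 0 in the wild-type list (interval 0 to 1.13% in both). Over 10328 pseudogenes of all kinds, with a median length of 931 bp, 0.881% were overlapped in the knockout list and 0.775% in the wild-type list.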
